A study of Mus musculus with 8 samples.

Results

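The mouse mitochondrial genome carries 37 genes, and all 37 were found among the 36048 genes of the deposited gene table as the rows whose symbol starts with mt-. They are 13 mRNA genes, 2 rRNA genes and 22 tRNA genes, and 31 of them also appear among the 46435 loci of the deposited TPM table, where 10 are mRNA genes and 19 are tRNA genes. RNA was sequenced from 3 populations of mouse skeletal muscle. Single muscle fibres (SMF, n = 3), the multinucleate cells that contract, were picked by hand from the extensor digitorum longus after 3 h of rest, 100 to a library. Satellite cells (SC, n = 2, replicates 1 and 3) are the muscle stem cells, and endothelial cells (EC, n = 3) line the vessels. SC and EC came from muscles of the hindlimb by cell sorting, with about 100000 cells in each library. No genotype or treatment separates the groups, and the labels name neither strain nor age. Muscle and way of isolation differed together with the population and cannot be told apart from it. The labels do not say that replicates were separate animals, so the spread behind each p-value is that between libraries and may be technical.

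The mitochondrial genome is a small circle that encodes core subunits of complexes I, III, IV and V of oxidative phosphorylation, together with the rRNAs and tRNAs needed to translate them, while complex II is made wholly from nuclear genes. Both strands are transcribed as long precursors that start in the control region, and the tRNAs that lie between the other genes are cut out to release the mRNAs and rRNAs. Muscle fibres are rich in mitochondria and depend on them for sustained work.

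The 10 ng of RNA used for each library was primed at random, and ribosomal cDNA was enzymatically cleaved during preparation, so rRNA values show what that step left. The deposited files correspond to 525 to 581 Mb of aligned bases for SMF, 278 to 313 Mb for SC and 298 to 368 Mb for EC. The summed level of 8 fibre markers was 28493 to 30889 FPKM in SMF, 175 to 269 FPKM in SC and 10.3 to 17.3 FPKM in EC. Satellite cell markers summed to 752 and 770 FPKM in SC, against 16.7 to 24.4 FPKM in EC, and endothelial markers to 1153 to 1180 FPKM in EC, against 3.82 to 4.31 FPKM in SMF and 17.6 and 23.9 FPKM in SC. The labels of the libraries therefore match their markers. EC replicate 2 had lower levels than the other EC libraries of pericyte markers (219 FPKM, against 540 and 651 FPKM), immune markers (9.20 FPKM, against 53.3 and 73.4 FPKM), erythroid markers (270 FPKM, against 575 and 582 FPKM) and fibro-adipogenic markers (17.6 FPKM, against 75.9 and 83.5 FPKM). In SC the fibro-adipogenic markers summed to 256 and 252 FPKM and the pericyte markers to 158 and 203 FPKM. The part of other cells in the mitochondrial values was not tested.

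Reads from a large part of this genome can also be placed on a nuclear chromosome. Positions 6390 to 11042 of the mitochondrial genome, 28.5% of its 16299 bases, were 99.936% identical over 4654 aligned bases to a stretch of chromosome 1, with 2 mismatched bases and 1 gap in the GRCm39 reference. The stretch contains 6 mRNA genes whole (mt-Co2, mt-Atp8, mt-Atp6, mt-Co3, mt-Nd3 and mt-Nd4l), parts of mt-Co1 and mt-Nd4, and 5 tRNA genes (mt-Ts1, mt-Td, mt-Tk, mt-Tg and mt-Tr). The gene table lists 7 copies from it, which are annotated as pseudogenes: Gm29216 (a part of mt-Co1), Gm28661 (mt-Co2), Gm10925 (mt-Atp6), Gm28437 (mt-Co3), Gm28438 (mt-Nd3), Gm10222 (mt-Nd4l) and Gm28439 (a part of mt-Nd4). A weaker match of 97.4% identity was found on chromosome 2 for positions 4441 to 7699.

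The 2 mismatched bases are shown because reads of 50 bases that span neither them nor the gap match both places. The differing base is in capitals, all lines run 5′ to 3′ along the gene, and positions count from 1 at the gene's first base. The sequences are those of the GENCODE transcripts of GRCm39. The first pair covers positions 1063 to 1086 of mt-Co1 (chrM:5328-6872, plus strand) and holds the difference A1066T.
mt-Co1: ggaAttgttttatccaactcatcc
Gm29216: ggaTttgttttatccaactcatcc
The second pair covers the first 23 bases of mt-Nd3 (chrM:9459-9806, plus strand) and holds the difference T3C.
mt-Nd3: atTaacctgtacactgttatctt
Gm28438: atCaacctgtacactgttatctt
The copies of mt-Co2, mt-Atp6, mt-Co3 and mt-Nd4l and that of the first 876 bases of mt-Nd4 had no differing base over their aligned length. mt-Atp8 (chrM:7766-7969, plus strand), which encodes a small membrane subunit of the ATP synthase, had no matching row among the copies. Its last 43 bases, in capitals, are also the first bases of mt-Atp6 (chrM:7927-8607, plus strand), so reads within them belong to both genes.
mt-Atp8: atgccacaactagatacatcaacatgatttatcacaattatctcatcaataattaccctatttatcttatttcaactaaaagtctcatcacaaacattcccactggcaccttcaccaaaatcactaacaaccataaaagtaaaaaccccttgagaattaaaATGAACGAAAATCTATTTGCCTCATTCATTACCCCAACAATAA

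The fragments of a gene and its copy were divided between both rows in very different proportions in different libraries. Of the fragments of mt-Co2 and Gm28661 together, the mitochondrial row held 3.03%, 1.78% and 2.91% in SMF replicates 1 to 3. It held 42.2% and 3.60% in SC replicates 1 and 3, and 17.5%, 29.2% and 20.5% in EC replicates 1 to 3. The pairs of mt-Atp6 and mt-Co3, which also lie between the 2 differing bases, were divided like that of mt-Co2 within each library. The 3 shares spanned 2.82% to 3.12% in SMF replicate 1, 41.4% to 42.2% in SC replicate 1, 3.29% to 3.79% in SC replicate 3 and 28.8% to 29.2% in EC replicate 2. Past the second differing base the division was another one. The mitochondrial rows of mt-Nd3 and mt-Nd4l held 41.9% to 50.6% of their pairs in SMF replicates 1 and 3 but 11.1% and 13.03% in SMF replicate 2. Their shares were 43.0% to 50.4% in SC and 49.8% to 57.8% in EC. For mt-Co1, whose copy matches only its last part, the share was 60.9% to 62.9% in SMF, 65.8% and 79.2% in SC and 67.4% to 73.5% in EC. FPKM of the genes inside the stretch are therefore given as deposited and also with the fragments of the copy added, which is a choice made after the data were seen. How reads that match both places were assigned is not given in the sources used here, and the cause of the unequal division was not tested.

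**Figure D1:**
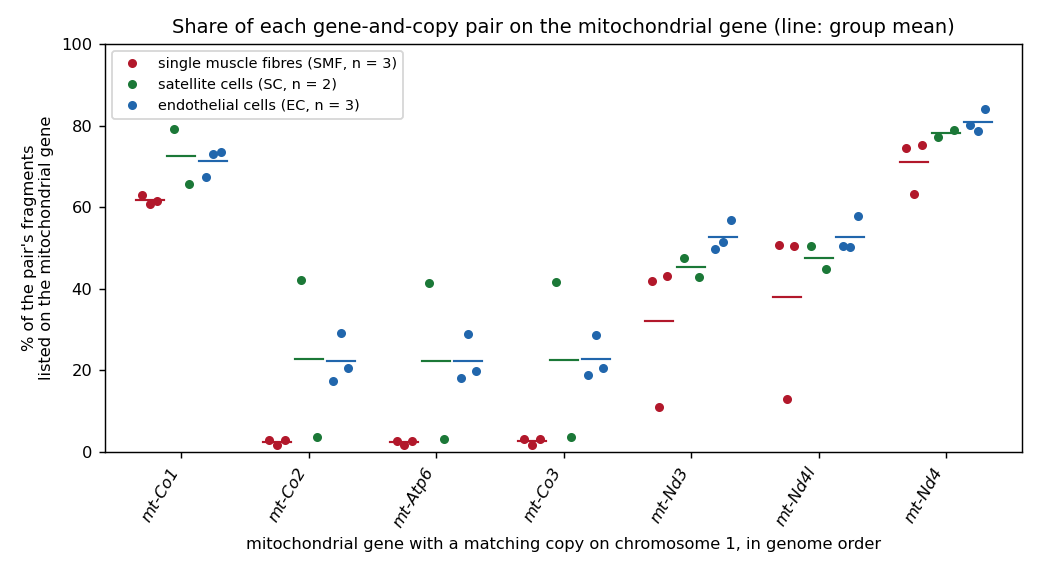
Percentage of the fragments of each gene-and-copy pair listed on the mitochondrial gene (y axis) for the 7 genes with a copy (x axis), with a point for each library and a line for the group mean. For mt-Co2, mt-Atp6 and mt-Co3 the SMF libraries and SC replicate 3 lie at or below 3.79% while SC replicate 1 lies at 41.4% to 42.2%.

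Among the complex I mRNAs, which encode membrane subunits of NADH dehydrogenase, mt-Nd1 (chrM:2751-3707, plus strand) differed most between fibres and sorted cells. It lies outside the copied stretch and was measured at 6473, 6403 and 5505 FPKM in SMF, a unit that divides the fragments of a gene by its length and by the total of the library. It was at 1806 and 3176 FPKM in SC and at 2418, 2122 and 2750 FPKM in EC. Every SMF library lay above every SC and EC library. The difference in log2(FPKM + 1) was 1.35 ± 0.38 (SE) for SMF minus SC (limma adjusted p = 0.0144) and 1.34 ± 0.34 for SMF minus EC (adjusted p = 0.00868). The call against EC held when any of the 8 libraries was left out, and that against SC was lost without SMF replicate 1 (adjusted p = 0.0507) and without SC replicate 1 (adjusted p = 0.063). Both calls were lost when genes of low level were kept in the fit (adjusted p = 0.0823 against EC and 0.102 against SC). In these bulk samples, fewer cells of a type and less RNA in each cell cannot be told apart.

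mt-Nd2 (chrM:3914-4951, plus strand), the next complex I gene, was at 4820, 4860 and 4155 FPKM in SMF, 1407 and 3402 FPKM in SC and 2733, 2290 and 2970 FPKM in EC. The SMF libraries again lay above all others, but the difference did not pass the test against SC (log2 1.07 ± 0.44, limma adjusted p = 0.0619) or EC (0.80 ± 0.39, adjusted p = 0.106). mt-Nd5 (chrM:11742-13565, plus strand) was at 2941, 3022 and 2349 FPKM in SMF, 1423 and 3249 FPKM in SC and 2294, 1943 and 2563 FPKM in EC, and the groups overlapped. mt-Nd6 (chrM:13552-14070) is the only mRNA on the minus strand and shares 14 bases with mt-Nd5. Its levels were 3720, 3799 and 2904 FPKM in SMF, 1665 and 3771 FPKM in SC and 3060, 2396 and 3273 FPKM in EC, which overlap too. Whether strand was used in counting is not given in the sources used here, so reads of mt-Nd6 and of the opposite strand cannot be told apart.

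mt-Nd4 (chrM:10167-11544, plus strand) lies partly inside the copied stretch. As deposited it was at 3808, 3140 and 2911 FPKM in SMF, 1430 and 2937 FPKM in SC and 2586, 2513 and 2914 FPKM in EC. With the fragments of its copy it was at 5104, 4966 and 3868 FPKM in SMF, 1852 and 3720 FPKM in SC and 3223, 3199 and 3467 FPKM in EC, and then no SMF library overlapped the others. mt-Nd4l (chrM:9877-10173, plus strand) shares 7 bases with it. The deposited level of mt-Nd4l was 2019, 511 and 1565 FPKM in SMF, 788 and 1782 FPKM in SC and 1475, 1271 and 1889 FPKM in EC. SMF replicate 2, the lowest of all as deposited, was at 3918 FPKM with the copy, next to 3988 and 3095 FPKM in the other SMF libraries, 1563 and 3972 FPKM in SC and 2927, 2528 and 3267 FPKM in EC. mt-Nd3 was deposited at 589, 149 and 518 FPKM in SMF, 281 and 546 FPKM in SC and 457, 365 and 585 FPKM in EC. With its copy it was at 1405, 1345 and 1201 FPKM in SMF, 592 and 1268 FPKM in SC and 917, 710 and 1026 FPKM in EC. None of these 3 genes was called in either form in any comparison. With the copies their log2 differences were 0.55 to 0.81 for SMF minus SC and 0.33 to 0.59 for SMF minus EC.

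Complex III has a single mitochondrial subunit, cytochrome b, encoded by mt-Cytb (chrM:14145-15288, plus strand). mt-Cytb lies outside the copied stretch and was at 6119, 6178 and 4913 FPKM in SMF, 2542 and 3823 FPKM in SC and 2679, 2683 and 2982 FPKM in EC. All SMF libraries lay above all others. The log2 difference was 1.04 ± 0.32 for SMF minus EC (limma adjusted p = 0.0213) and 0.87 ± 0.36 for SMF minus SC (adjusted p = 0.0635). The call against EC was lost without SMF replicate 1 or 2 or EC replicate 1, with adjusted p of 0.0537 to 0.0811, and with genes of low level kept in the fit (adjusted p = 0.181).

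The complex IV mRNAs encode the catalytic core of cytochrome c oxidase. mt-Co1 was deposited at 6514, 6049 and 5404 FPKM in SMF, 3208 and 3618 FPKM in SC and 3020, 4023 and 3660 FPKM in EC, without overlap between SMF and the others. Its log2 difference was 0.81 ± 0.35 for SMF minus SC (limma adjusted p = 0.0747) and 0.75 ± 0.31 for SMF minus EC (adjusted p = 0.0645). With the fragments of the copy both were called, at 1.03 ± 0.37 (adjusted p = 0.0392) and 0.96 ± 0.33 (adjusted p = 0.0335).

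mt-Co2 (chrM:7013-7696, plus strand) had opposite orders of the groups in both forms. As deposited it was at 215, 115 and 173 FPKM in SMF, 1115 and 150 FPKM in SC and 559, 940 and 747 FPKM in EC, so fibres lay below EC. With the fragments of its copy it was at 7096, 6436 and 5938 FPKM in SMF, 2643 and 4168 FPKM in SC and 3189, 3222 and 3640 FPKM in EC, so fibres lay above every sorted library. The log2 difference for SMF minus EC was -2.17 ± 0.67 as deposited (limma adjusted p = 0.0218) and 0.95 ± 0.32 with the copy (adjusted p = 0.0295). For SMF minus SC it was -1.33 ± 0.75 as deposited (adjusted p = 0.156) and 0.96 ± 0.36 with the copy (adjusted p = 0.0439).

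mt-Co3 (chrM:8607-9390, plus strand) was deposited at 185, 109 and 160 FPKM in SMF, 779 and 80.8 FPKM in SC and 278, 460 and 321 FPKM in EC. With its copy it was at 5923, 5838 and 5140 FPKM in SMF, 1872 and 2132 FPKM in SC and 1473, 1598 and 1565 FPKM in EC. Its log2 difference was then the largest of the 13 mRNAs in both comparisons with SMF. The difference with the copy was 1.49 ± 0.29 for SMF minus SC (limma adjusted p = 0.00238) and 1.86 ± 0.26 for SMF minus EC (adjusted p = 0.000369), whereas the deposited values gave -0.77 ± 0.82 and -1.22 ± 0.73 and no call.

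mt-Atp6 encodes the subunit of the ATP synthase that forms the path of protons with the rotor. It was deposited at 347, 210 and 293 FPKM in SMF, 2168 and 224 FPKM in SC and 946, 1790 and 1137 FPKM in EC. With its copy it was at 12278, 12213 and 10784 FPKM in SMF, 5241 and 6816 FPKM in SC and 5233, 6183 and 5751 FPKM in EC, the highest mRNA of every group in that form. The log2 difference for SMF minus EC was -2.16 ± 0.75 as deposited (limma adjusted p = 0.0342) and 1.04 ± 0.34 with the copy (adjusted p = 0.0269). For SMF minus SC it was -1.33 ± 0.84 as deposited (limma adjusted p = 0.199) and 0.97 ± 0.38 with the copy (adjusted p = 0.0531). The deposited calls of mt-Co2 and mt-Atp6 against EC were lost without SMF replicate 2 or 3 or EC replicate 2 or 3, with adjusted p of 0.0515 to 0.0978, and that of mt-Atp6 also without SMF replicate 1 or EC replicate 1. mt-Atp8, for which no copy could be added, was at 342, 188 and 231 FPKM in SMF, 1445 and 135 FPKM in SC and 566, 1078 and 703 FPKM in EC. Its SMF libraries lay below its EC libraries, as they did for the deposited mt-Co2, mt-Atp6 and mt-Co3.

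**Figure D2:**
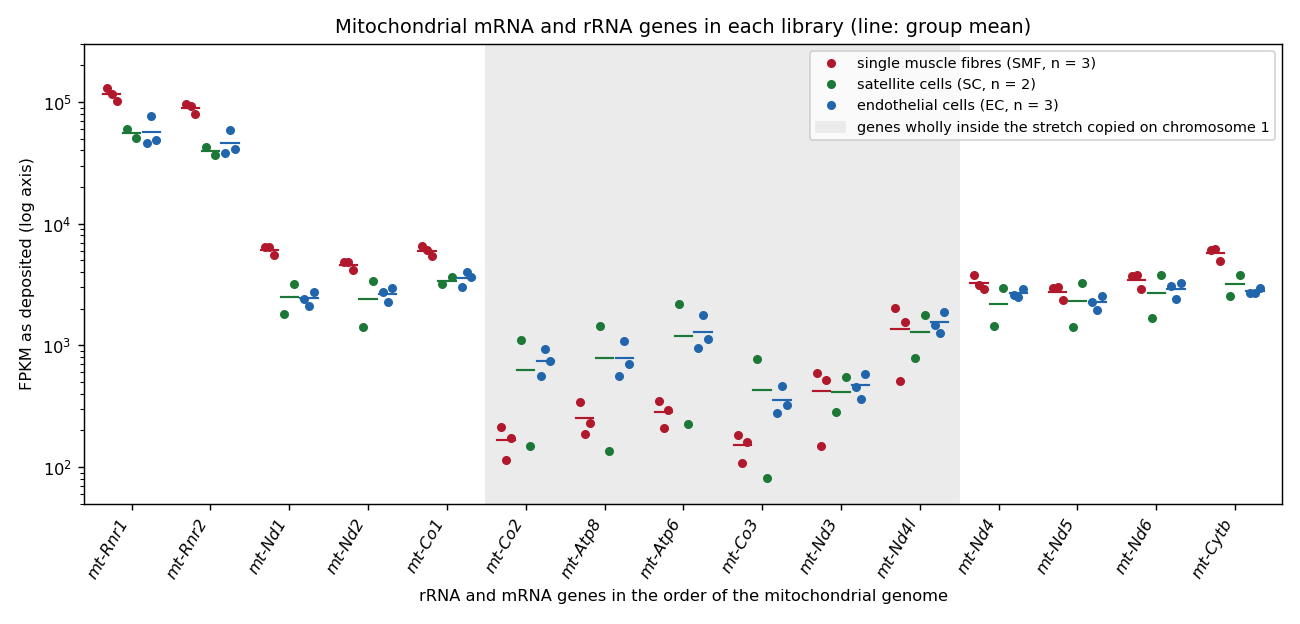
Deposited FPKM (y axis, log scale) of the 2 rRNA and 13 mRNA genes in genome order (x axis), with a point for each library and a line for the group mean. Inside the shaded copied stretch the levels reach at most 2168 FPKM (mt-Atp6 in SC replicate 1), and the SMF libraries are below the EC libraries for mt-Co2, mt-Atp8, mt-Atp6 and mt-Co3.

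Over the 13 mRNAs as deposited, SMF minus SC had 1 gene called higher and 0 lower (limma, adjusted p under 0.05), where 8.57% of all 16700 tested genes were called higher and 56.5% lower. SMF minus EC had 2 called higher and 2 lower, where 10.8% of all tested genes were higher and 55.5% lower. SC minus EC had 0 called in either direction, and 0 reached an unadjusted p under 0.05, where 21.2% of all tested genes were higher and 16.4% lower. All 37 mitochondrial genes passed the filter on low values (2 or more libraries reaching an FPKM of 1). With the fragments of the copies added, 4 mRNAs were higher and 0 lower for SMF minus SC, with 8.56% of all tested genes higher. For SMF minus EC, 6 were higher and 0 lower, with 10.8% of all tested genes higher. The 5 genes outside the stretch had a median log2 difference of 0.87 for SMF minus SC and 0.80 for SMF minus EC, while the median of all tested genes was -0.93 and -0.85. The 6 genes inside it had a median of -1.42 for SMF minus EC as deposited and of 0.77 with the copies, where mt-Atp8 kept its deposited values.

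The groups were also compared by their ranges. As deposited, 4 of the 13 mRNAs were higher in every SMF library than in every SC library, where 10.8% of all tested genes were, and 0 were lower, where 67% were. Against EC, 4 were higher and 4 lower in every SMF library, where 11.9% of all tested genes were higher and 58.9% lower. For SC minus EC 0 of the 13 were apart, where 31.5% of all tested genes were higher and 23.2% lower. With the copies, 8 were higher and 0 lower for SMF minus SC, and for SMF minus EC 9 were higher and 1, mt-Atp8, was lower. For mt-Atp8 no copy could be added.

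**Figure D3:**
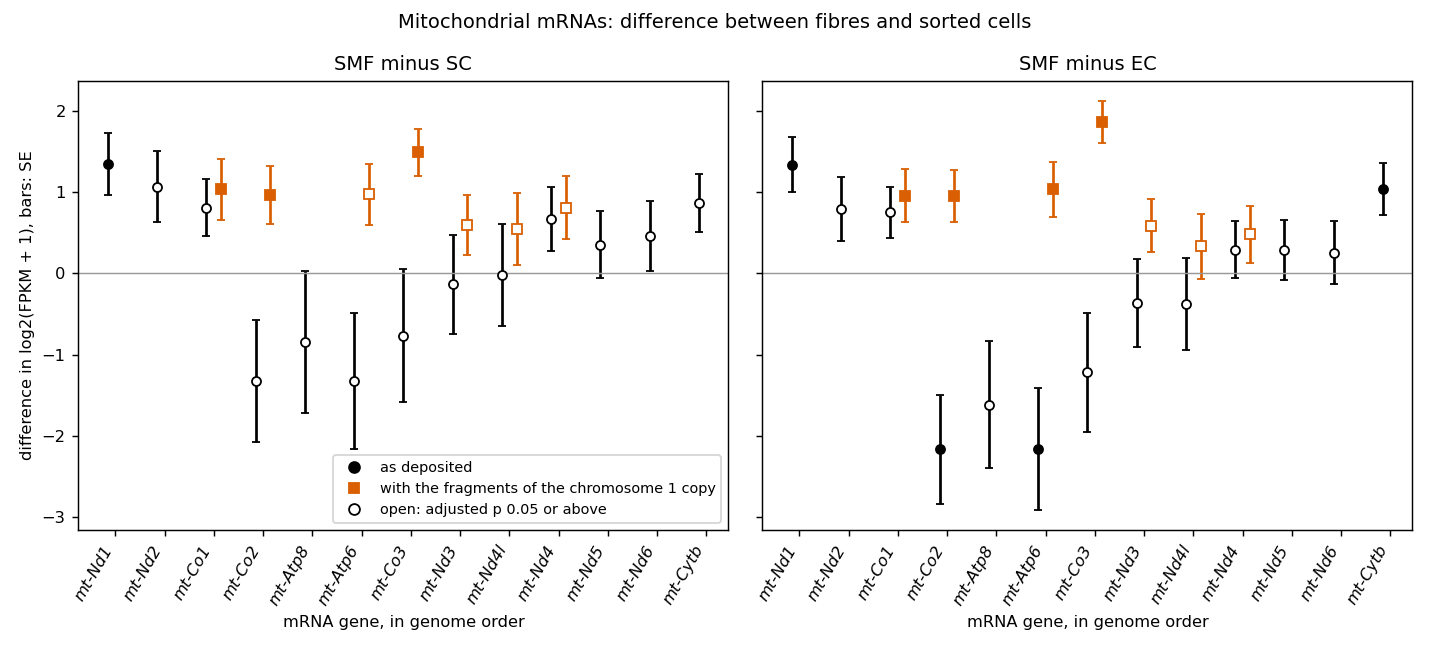
Difference in log2(FPKM + 1) between SMF and SC (left) and between SMF and EC (right) for the 13 mRNAs (x axis, genome order), as deposited (circles) and with the fragments of the chromosome 1 copy (squares), with bars for the SE and filled symbols for adjusted p under 0.05. mt-Co2 and mt-Atp6 lie at -2.17 and -2.16 against EC as deposited and at 0.95 and 1.04 with the copies.

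Because FPKM are relative to all fragments of a library, the scaling of the libraries moves all of these differences together. Median-of-ratios scaling moved the median of all tested genes to -0.21 for SMF minus SC and -0.20 for SMF minus EC. It gave 7 mRNAs higher and 0 lower in both comparisons as deposited, where 3737 of the 16700 tested genes were higher against SC and 4116 against EC. Upper-quartile scaling gave 4 higher and 0 lower in both, with 1741 and 2547 of all tested genes higher. Scaling to the FPKM left when the 50 top genes per group were set aside gave 7 higher against SC and 5 against EC, with 0 lower, and 2611 and 2697 of all tested genes higher. The deposited calls of mt-Co2 and mt-Atp6 as lower in SMF than in EC were therefore lost under each of these scalings, with log2 differences of -0.76 to -1.48 for mt-Co2 and -0.75 to -1.47 for mt-Atp6. mt-Nd1 was called higher against both groups under all 3, with log2 differences of 1.82 to 2.94.

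The mRNAs took 4.22%, 3.99% and 3.45% of all aligned bases in SMF, 2.00% and 2.95% in SC and 2.42%, 2.49% and 2.76% in EC. Their share was 3.89% ± 0.397 (SD, n = 3) in SMF, 2.47% ± 0.677 (n = 2) in SC and 2.56% ± 0.181 (n = 3) in EC, and every SMF library lay above all others. With the fragments of the copies the shares were 6.39% ± 0.625 in SMF, 3.47% ± 1.21 in SC and 3.49% ± 0.190 in EC, a ratio of means of 1.84 for SMF over SC and 1.83 for SMF over EC. As a share of summed FPKM, which gives short and long genes the same weight, the deposited mRNAs held 2.42% ± 0.483 in SMF, 1.88% ± 0.687 in SC and 1.85% ± 0.276 in EC, and the ranges overlapped.

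Relative levels within the genome do not depend on the scaling of the libraries. mt-Nd1 and mt-Nd2 are neighbours on the plus strand, and the ratio of their FPKM was 1.34, 1.32 and 1.32 in SMF, 1.28 and 0.934 in SC and 0.885, 0.927 and 0.926 in EC. The ratio of mt-Nd1 to mt-Nd5, which lies far from the start of transcription, was 2.20, 2.12 and 2.34 in SMF, 1.27 and 0.978 in SC and 1.05, 1.09 and 1.07 in EC. All SMF libraries thus had more mt-Nd1 per mt-Nd5 than any sorted library. mt-Cytb over mt-Nd5 was 2.08, 2.04 and 2.09 in SMF, 1.79 and 1.18 in SC and 1.17, 1.38 and 1.16 in EC. The ratio of mt-Nd6 to mt-Nd5, its neighbour on the opposite strand, was 1.26, 1.26 and 1.24 in SMF, 1.17 and 1.16 in SC and 1.33, 1.23 and 1.28 in EC. SMF and EC overlap in it.

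As a share of the mRNA sum with copies, complex I genes made up 40.2% ± 0.899 in SMF, 43.3% ± 9.41 in SC and 47.5% ± 4.004 in EC. Complex IV genes made up 33.0% ± 0.812 in SMF, 28.3% ± 3.07 in SC and 27.1% ± 1.76 in EC. Each SMF library had a larger complex IV share than each sorted library. In this sum mt-Atp8 kept its deposited values, since no copy could be added. Whether the complex IV shares would stay apart with such fragments is therefore not known. mt-Co3 alone made up 8.52% ± 0.180 in SMF, 5.69% ± 1.37 in SC and 4.24% ± 0.248 in EC. mt-Nd5 made up 4.18% ± 0.192 in SMF, 6.13% ± 1.51 in SC and 6.19% ± 0.618 in EC, and mt-Nd6 5.23% ± 0.284 in SMF, 7.14% ± 1.72 in SC and 7.95% ± 1.05 in EC. Both were lower in every SMF library than in any sorted library. With the copies mt-Atp6 and mt-Co1 were the most abundant mRNAs in all 3 groups, and in SMF neither overlapped the gene after it in the order. As deposited the most abundant were mt-Nd1, mt-Co1 and mt-Cytb in SMF, whose ranges overlapped, and mt-Co1 in SC and EC, where it overlapped the gene after it.

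The 2 SC libraries differed from each other in their mRNAs. The 5 mRNAs outside the copied stretch were lower in SC replicate 1 than in SC replicate 3, by a log2 ratio of -0.59 for mt-Cytb to -1.27 for mt-Nd2. mt-Co2, mt-Atp8, mt-Atp6 and mt-Co3 were higher in SC replicate 1, by 2.89 to 3.42. With 1 SC library left out, the remaining library is assumed to vary like those of the other groups. Calls from such a fit are therefore not counted here. With 1 library of any group left out, the log2 difference of mt-Nd1 for SMF minus SC ranged from 0.94 to 1.76. With the copies added all 7 genes of the copied stretch that have one were lower in SC replicate 1 than in SC replicate 3. mt-Atp6 was at 5241 and 6816 FPKM, mt-Co1 at 4049 and 5498 FPKM, mt-Co2 at 2643 and 4168 FPKM and mt-Co3 at 1872 and 2132 FPKM. mt-Nd3 was at 592 and 1268 FPKM, mt-Nd4l at 1563 and 3972 FPKM and mt-Nd4 at 1852 and 3720 FPKM, and these last genes lay furthest apart. The labels mention 1 sample of lower RNA integrity without naming it.

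The rRNAs were the most abundant mitochondrial RNAs in every library, although ribosomal cDNA had been cleaved. mt-Rnr1 (chrM:70-1024, plus strand), the rRNA of the small ribosomal subunit, was at 130426, 117078 and 102645 FPKM in SMF, 60046 and 50529 FPKM in SC and 45712, 76057 and 49026 FPKM in EC. mt-Rnr2 (chrM:1094-2675, plus strand), the rRNA of the large subunit, was at 96147, 93635 and 79397 FPKM in SMF, 43001 and 36632 FPKM in SC and 38095, 58440 and 40877 FPKM in EC. All SMF libraries were above all others, and EC replicate 2, the library with lower levels of pericyte, immune, erythroid and fibro-adipogenic markers, was the highest sorted library for both genes. The log2 differences were 1.08 ± 0.78 and 1.17 ± 0.72 for SMF minus SC (limma adjusted p = 0.259 for mt-Rnr1 and 0.187 for mt-Rnr2). They were 1.07 ± 0.70 and 0.99 ± 0.64 for SMF minus EC (adjusted p = 0.212 and 0.206), so that 0 of the 2 genes were called in these comparisons or in SC minus EC, and 0 reached an unadjusted p under 0.05. In either direction 65.1% of all tested genes were called for SMF minus SC, 66.3% for SMF minus EC and 37.7% for SC minus EC. Without EC replicate 2 the differences for SMF minus EC were 1.29 for mt-Rnr1 (adjusted p = 0.0925) and 1.18 for mt-Rnr2 (adjusted p = 0.0965). Limma without a trend of the variance on the level called both in both comparisons, with adjusted p of 0.00229 to 0.00622, as did median-of-ratios scaling, with adjusted p of 0.0217 to 0.036.

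In shares of aligned bases the rRNAs took 25.3% ± 2.71 in SMF, 11.6% ± 1.36 in SC and 12.7% ± 3.33 in EC. All 37 mitochondrial genes together took 26.0% to 32.1% in SMF, 13.7% and 14.6% in SC and 12.9% to 19.1% in EC, without the copies. The ratio of mt-Rnr1 to mt-Rnr2, which follow each other with only mt-Tv between them, was 1.30 ± 0.0534 in SMF, 1.39 ± 0.0120 in SC and 1.23 ± 0.0588 in EC. The rRNAs summed to 3.12 ± 0.0836 times the FPKM of the mRNAs with copies in SMF, 2.80 ± 1.23 times in SC and 2.83 ± 0.837 times in EC, and the ranges overlapped.

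The 22 tRNA genes are 59 to 75 bases long, close to a read of 50 bases, and reads of a free tRNA and of a precursor that holds it cannot be told apart here. Several of the genes called in the comparisons with SMF, and the neighbours that share bases with them, are shown 5′ to 3′ on their own strand, with the bases shared with a neighbour in capitals.
mt-Tv: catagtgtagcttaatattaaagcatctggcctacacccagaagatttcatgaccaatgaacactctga
mt-Ti: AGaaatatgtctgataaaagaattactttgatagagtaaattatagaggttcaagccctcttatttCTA
mt-Tq: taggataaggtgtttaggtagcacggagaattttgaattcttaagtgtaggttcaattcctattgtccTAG
mt-Td: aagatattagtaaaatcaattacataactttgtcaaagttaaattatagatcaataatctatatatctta
mt-Tr: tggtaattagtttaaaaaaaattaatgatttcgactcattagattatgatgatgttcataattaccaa
mt-Ts2: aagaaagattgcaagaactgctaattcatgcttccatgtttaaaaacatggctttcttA
mt-Tl2: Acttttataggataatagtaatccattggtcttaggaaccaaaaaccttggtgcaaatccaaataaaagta
mt-Ti and mt-Tq lie on opposite strands and share 3 bases, and mt-Ts2 and mt-Tl2 share 1 base.

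The tRNA genes were called in both directions. For SMF minus SC 3 were called higher and 3 lower, and for SMF minus EC 3 higher and 4 lower (limma, adjusted p under 0.05, against the shares of all tested genes above). For SC minus EC 0 were called, and 1, mt-Td, reached an unadjusted p under 0.05. The median log2 difference of the 22 was 0.34 for SMF minus SC, -0.08 for SMF minus EC and -0.52 for SC minus EC.

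mt-Tv (chrM:1025-1093, plus strand), the valine tRNA between the rRNA genes, was at 4865, 4576 and 7021 FPKM in SMF, 1266 and 1147 FPKM in SC and 2157, 557 and 1715 FPKM in EC. It was higher in every fibre library, by 2.16 ± 0.58 for SMF minus SC (limma adjusted p = 0.0122) and 2.08 ± 0.52 for SMF minus EC (adjusted p = 0.00834). The call against SC was lost without SC replicate 3 (adjusted p = 0.0567). mt-Tq (chrM:3772-3842, minus strand), the glutamine tRNA, was at 1827, 1479 and 1653 FPKM in SMF, 273 and 540 FPKM in SC and 591, 312 and 492 FPKM in EC. Its differences of 2.10 ± 0.39 against SC (adjusted p = 0.00199) and 1.87 ± 0.35 against EC (adjusted p = 0.00189) were called whichever library was left out. mt-Th (chrM:11546-11612, plus strand), the histidine tRNA after mt-Nd4, was at 1848, 1615 and 2396 FPKM in SMF, 429 and 942 FPKM in SC and 1138, 674 and 1117 FPKM in EC. Its differences were 1.60 ± 0.43 against SC (adjusted p = 0.0119) and 1.02 ± 0.38 against EC (adjusted p = 0.0459). The call against SC was lost without SC replicate 1 (adjusted p = 0.0785), and that against EC without any one of the SMF or EC libraries (adjusted p of 0.0579 to 0.134).

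mt-Td (chrM:6942-7011, plus strand), the aspartate tRNA, had the lowest log2 difference of the 37 genes in both comparisons with SMF, at 15.0, 5.69 and 23.9 FPKM in SMF, 183 and 120 FPKM in SC and 275, 435 and 502 FPKM in EC. Its log2 difference was -3.43 ± 0.54 for SMF minus SC (limma adjusted p = 0.000839) and -4.82 ± 0.48 for SMF minus EC (adjusted p = 6.06e-05), and it was called whichever library was left out. mt-Tr (chrM:9808-9875, plus strand), the arginine tRNA, was at 39.7, 10.0 and 62.3 FPKM in SMF, 86.1 and 396 FPKM in SC and 359, 175 and 481 FPKM in EC. Its difference was -3.36 ± 0.79 for SMF minus EC (adjusted p = 0.00627) and -2.61 ± 0.89 for SMF minus SC (adjusted p = 0.0321), the second lost without SMF replicate 1 or 2 or SC replicate 3 (adjusted p of 0.0507 to 0.234). Median-of-ratios scaling multiplied the FPKM by 1.83 to 1.92 in SMF, 0.68 and 0.58 in SC and 0.66 to 0.78 in EC. Under it 5 calls of the 37 genes were lost without a change of sign, and mt-Td and mt-Tr are not given under it here. mt-Td and mt-Tr lie inside the stretch that is copied on chromosome 1. Copies shorter than 100 bases were not searched for, so no fragments of a copy could be added to them.

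mt-Tl2 (chrM:11671-11741, plus strand), a leucine tRNA, lies outside the stretch and was also low in fibres. It was at 55.7, 80.3 and 95.3 FPKM in SMF, 235 and 1120 FPKM in SC and 850, 613 and 897 FPKM in EC. The difference was -2.75 ± 0.60 for SMF minus SC (limma adjusted p = 0.00448) and -3.35 ± 0.54 for SMF minus EC (adjusted p = 0.000853), and it was called whichever library was left out. Under median-of-ratios scaling it was -1.17 against SC, without a call (adjusted p = 0.112), and -1.95 against EC (adjusted p = 0.0101). mt-Ts2 (chrM:11613-11671, plus strand), the serine tRNA before it, had the lowest level of the 37 genes, 2.29, 0.82 and 2.63 FPKM in SMF, 1.17 and 1.44 FPKM in SC and 1.04, 0.74 and 0.96 FPKM in EC. mt-Th, which ends where mt-Ts2 begins, was at 429 FPKM or more in every library. In the TPM table mt-Ts2 names a locus that also spans mt-Tl2, and there it was called lower in SMF, with log2 differences of -2.86 against SC (adjusted p = 0.00259) and -3.40 against EC (adjusted p = 0.000442).

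mt-Ta (chrM:5018-5086, minus strand), the alanine tRNA, was at 411, 362 and 451 FPKM in SMF, 368 and 841 FPKM in SC and 822, 580 and 926 FPKM in EC. It was called lower against EC only just, at -0.90 ± 0.35 (limma adjusted p = 0.0494), a call that was lost without any of the SMF libraries or without EC replicate 1 or 3 (adjusted p of 0.0814 to 0.14), and under median-of-ratios scaling its sign turned to 0.51 (adjusted p = 0.183). mt-Tg (chrM:9391-9458, plus strand), the glycine tRNA, had the widest spread in FPKM of the tRNAs in SMF, at 6711, 1553 and 9761 FPKM in SMF, 1841 and 1634 FPKM in SC and 2503, 1517 and 2295 FPKM in EC. SMF replicate 2, the lowest of them, was also lowest for the deposited mt-Nd3 and mt-Nd4l that follow mt-Tg in the genome. The other 13 tRNA genes had group means of 92.3 FPKM (mt-Tk) to 1475 FPKM (mt-Te) in SMF, 119 to 1481 FPKM in SC and 189 to 1709 FPKM in EC for the same 2 genes, and were not called in any comparison. By strand, the 14 tRNAs on the plus strand had a median log2 difference of 0.33 for SMF minus EC and the 8 on the minus strand -0.46. In that comparison 2 were higher and 3 lower on the plus strand and 1 in each direction on the minus strand. The medians of the plus and minus strands were 0.54 and 0.03 for SMF minus SC and -0.56 and -0.42 for SC minus EC. As strand use in counting is not given, reads of the minus-strand tRNAs, mt-Tq and mt-Ta among them, cannot be told apart from reads of the opposite strand.

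**Figure D4:**
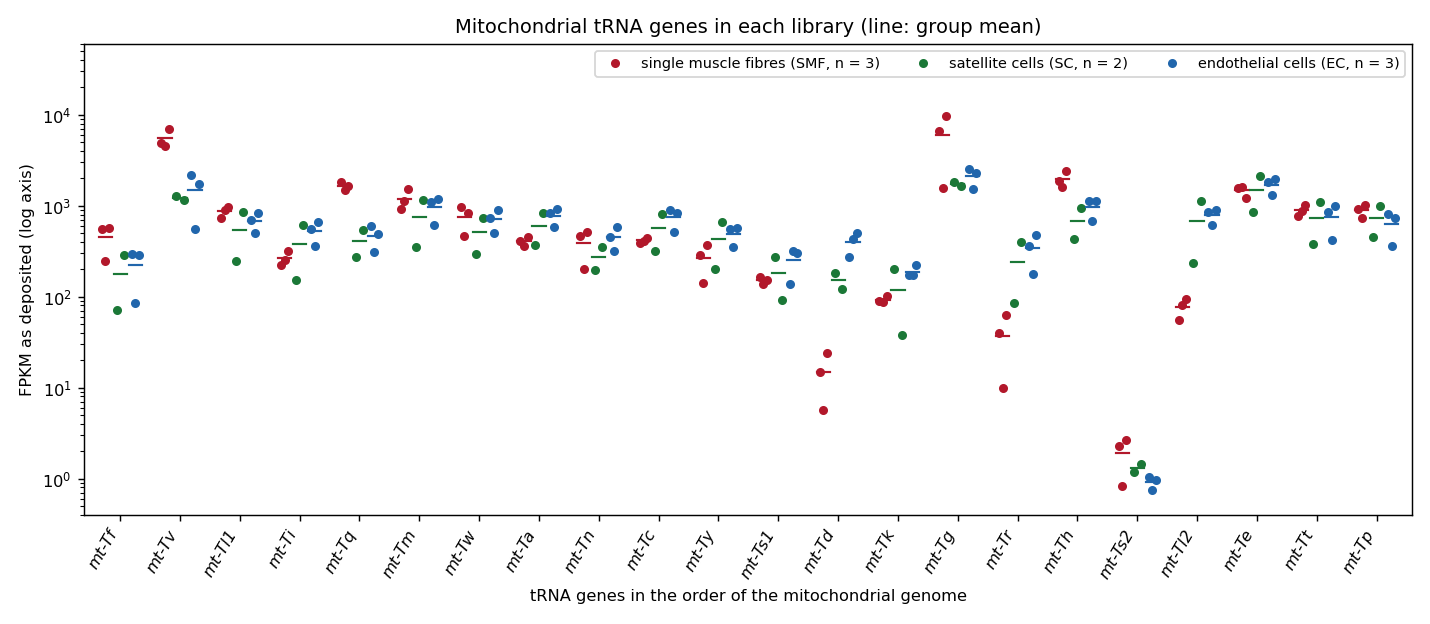
Deposited FPKM (y axis, log scale) of the 22 tRNA genes in genome order (x axis), with a point for each library and a line for the group mean. The SMF libraries are above all others for mt-Tv, mt-Tq and mt-Th and below all others for mt-Td, mt-Tr and mt-Tl2, and mt-Ts2 reaches at most 2.63 FPKM.

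The mitochondrial subunits are assembled with subunits made from nuclear mRNAs, and most of these were higher in SMF. All 37 tested nuclear genes of complex I were called higher for SMF minus SC and for SMF minus EC, with median log2 differences of 1.91 and 2.19, where the medians of all tested genes were -0.93 and -0.85 and 8.57% and 10.8% of them were called higher. Ndufb9, an accessory subunit, averaged 357 ± 30.7 FPKM in SMF, 51.4 ± 0.587 FPKM in SC and 39.6 ± 4.44 FPKM in EC, and was called at 2.77 ± 0.18 against SC and 3.14 ± 0.16 against EC (limma adjusted p = 1.01e-05 and 1.49e-06). Ndufa5 averaged 105 ± 2.21 FPKM in SMF, 19.6 ± 2.14 FPKM in SC and 10.3 ± 3.08 FPKM in EC. Of the 7 mitochondrial complex I genes only mt-Nd1 was called in these comparisons, with or without the copies. The difference between the nuclear and the mitochondrial genes was not tested.

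Complex II, which has no mitochondrial subunit, was higher in SMF for all 4 nuclear genes in both comparisons, with medians of 1.41 against SC and 1.73 against EC, beside the 8.57% and 10.8% of all tested genes called higher. Sdhb, its iron-sulphur subunit, averaged 50.0 ± 4.499 FPKM in SMF, 11.6 ± 1.62 FPKM in SC and 7.81 ± 0.648 FPKM in EC. Of the 9 nuclear complex III genes, 8 were higher against SC and 9 against EC, and Uqcrb averaged 146 ± 12.8 FPKM in SMF, 15.1 ± 8.35 FPKM in SC and 23.8 ± 3.43 FPKM in EC. Of 15 complex V genes, 14 were higher in each of these comparisons. Atp5a1 and Atp5b, the subunits of the catalytic head, averaged 204 ± 31.4 and 164 ± 16.3 FPKM in SMF, 85.1 ± 8.07 and 75.2 ± 6.05 FPKM in SC and 45.3 ± 4.64 and 39.9 ± 6.36 FPKM in EC.

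Complex IV had some isoforms that were called in opposite directions. Of its 13 nuclear genes, 11 were higher and 2 lower in SMF than in SC, and likewise against EC, where the shares of all tested genes were 8.57% higher and 56.5% lower against SC and 10.8% and 55.5% against EC. Cox6a2 and Cox8b, the heart and muscle isoforms of their subunits, averaged 411 ± 7.09 and 243 ± 19.7 FPKM in SMF. In SC Cox6a2 averaged 3.00 ± 4.24 FPKM and Cox8b was listed at 0, and in EC both were listed at 0. Cox6a1 and Cox8a, the isoforms of other tissues, averaged 2.19 ± 0.435 and 5.54 ± 0.834 FPKM in SMF, against 41.3 ± 8.67 and 83.9 ± 5.75 FPKM in SC and 34.7 ± 6.78 and 41.5 ± 10.4 FPKM in EC. The log2 difference of Cox6a1 was -3.72 ± 0.23 for SMF minus SC (limma adjusted p = 8.06e-06) and -3.48 ± 0.20 for SMF minus EC (adjusted p = 3.17e-06). Cox7a1 and Cox7a2, also isoforms of a subunit, were not split, as both were called higher in SMF in both comparisons.

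Between the sorted cells, SC minus EC, 6 of 37 complex I genes were higher and 1 lower, 3 of 4 complex II, 3 of 9 complex III and 5 of 13 complex IV genes were higher, and 8 of 15 complex V genes were higher and 1 lower, with 21.2% of all tested genes higher and 16.4% lower. Atp5b was among those higher, at 0.91 ± 0.20 (limma adjusted p = 0.00837), and Ndufa8 was lower, at -2.05 ± 0.30 (adjusted p = 0.00129). The counts of nuclear subunits higher in SMF were 37, 4, 9, 11 and at least 14 for complexes I to V under each of the 3 scalings, with 2 counted lower for complex IV. Of all 16700 tested genes, 2554 were higher for SC minus EC under median-of-ratios scaling, 3827 under upper-quartile scaling and 2100 without the top genes. For SC minus EC the counts of nuclear subunits higher were 2, 0, 1, 2 and 6 under median-of-ratios scaling, 7, 2, 3, 5 and 8 under upper-quartile scaling and 1, 0, 0, 1 and 3 without the top genes. As deposited, with either SC library left out, the counts higher were smaller for every complex, but only 1 SC library remained in those fits. Without SC replicate 3 more complex I genes were called lower than higher. The count for complex II was 0 or 1 whichever library was left out.

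**Figure D5:**
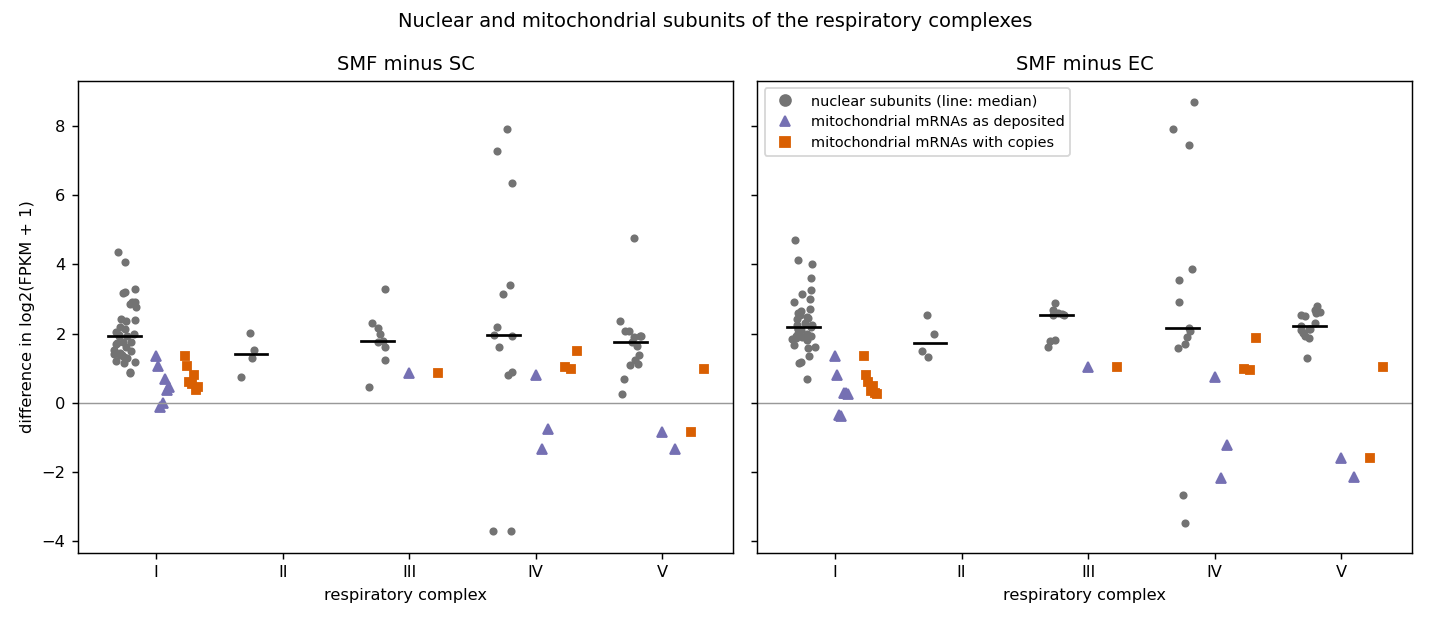
Difference in log2(FPKM + 1) of the nuclear subunits (circles, line at the median), the mitochondrial mRNAs as deposited (triangles) and the mitochondrial mRNAs with copies (squares) for complexes I to V (x axis), for SMF minus SC (left) and SMF minus EC (right). The median of the nuclear complex I genes is 1.91 against SC and 2.19 against EC, and mt-Nd1, the highest mitochondrial gene of that complex, lies at 1.35 and 1.34.

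Genes that act on mitochondrial DNA and RNA were called in both directions, with counts that depended on the scaling. Of all tested genes, 8.57% were higher and 56.5% lower for SMF minus SC, and 10.8% higher and 55.5% lower for SMF minus EC. Of 20 tested genes of mitochondrial transcription and DNA maintenance, 1 was higher and 9 lower for SMF minus SC, and 2 higher and 5 lower for SMF minus EC. With SC replicate 3 left out the counts for SMF minus SC were smaller, but only 1 SC library and 18 of these genes remained in that fit. The counts against SC were 6 higher and 3 lower under median-of-ratios scaling, 2 and 3 under upper-quartile scaling and 3 and 3 when scaled without the 50 top genes per group. Against EC they were 10 higher and 2 lower, 7 and 3, and 9 and 3 under these scalings. Tfam, which packages mitochondrial DNA and activates its transcription, averaged 3.52 ± 0.332 FPKM in SMF, 5.79 ± 0.282 FPKM in SC and 3.42 ± 0.527 FPKM in EC. It was called lower in SMF than in SC, with a log2 difference of -0.59 ± 0.15 (limma adjusted p = 0.0105). Median-of-ratios scaling multiplied the FPKM by 1.83 to 1.92 in SMF and by 0.68 and 0.58 in SC. That is enough to turn the order of these means around, and a test of Tfam under it is not given here. Polg, the polymerase that copies mitochondrial DNA, averaged 0.721 ± 0.310 FPKM in SMF, 4.83 ± 0.387 FPKM in SC and 3.16 ± 1.29 FPKM in EC. Tefm, the transcription elongation factor, was the one higher gene against SC, at 2.90 ± 0.608 FPKM in SMF, 1.09 ± 0.786 FPKM in SC and 0.8004 ± 0.352 FPKM in EC.

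Of 32 tested genes of mitochondrial RNA processing and stability, 3 were higher and 13 lower for SMF minus SC, and 8 higher and 7 lower for SMF minus EC. The shares of all tested genes were those given above. Against SC the counts were 11 higher and 1 lower under median-of-ratios scaling, 4 and 7 under upper-quartile scaling and 7 and 3 without the top genes, and against EC 20 and 2, 13 and 3, and 14 and 6. All tested genes had the counts given above for each scaling. Pde12, which removes poly(A) tails from mitochondrial RNA, averaged 1.07 ± 0.249 FPKM in SMF, 10.9 ± 1.23 FPKM in SC and 9.62 ± 0.322 FPKM in EC. Mtpap, the mitochondrial poly(A) polymerase, averaged 1.45 ± 0.433 FPKM in SMF, 6.51 ± 0.843 FPKM in SC and 9.60 ± 0.955 FPKM in EC. The differences for SMF minus EC were -2.36 ± 0.14 for Pde12 and -2.13 ± 0.17 for Mtpap (limma adjusted p = 3.28e-06 and 1.68e-05). Lrpprc, which stabilises mitochondrial mRNAs, averaged 4.58 ± 0.371 FPKM in SMF, 3.30 ± 0.752 FPKM in SC and 1.88 ± 0.470 FPKM in EC, and was higher in SMF than in EC by 0.97 ± 0.17 (adjusted p = 0.00129).

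Of 19 tested genes from a list of mitochondrial tRNA synthetases and amidotransferase subunits, 0 were higher and 7 lower for SMF minus SC. For SMF minus EC 0 were higher and 4 lower. Of all tested genes, 56.5% were lower against SC and 55.5% against EC. Without any one of the SMF libraries the count lower against SC was 4 of 18 tested genes. Without SMF replicate 1, 2 or 3, 8535 of 16606, 8520 of 16598 and 8605 of 16576 of all tested genes were lower. Without SC replicate 3 the count was smaller too, but only 1 SC library and 14 of these genes remained in that fit. Against SC the counts were 7 higher and 1 lower under median-of-ratios scaling, 0 and 3 under upper-quartile scaling and 4 and 2 without the top genes, and against EC 10 and 1, 4 and 1, and 5 and 1. All tested genes had the counts given above for each scaling. For SC minus EC, where 21.2% of all tested genes were higher and 16.4% lower, 6 genes of transcription and maintenance were higher and 1 lower, 10 of processing were higher and 0 lower, and 3 synthetases were higher and 0 lower. With either SC library left out the counts higher were smaller for each list, but only 1 SC library and fewer of these genes remained in those fits. Hsd17b10, a part of the mitochondrial enzyme that cuts tRNAs from their precursors at the 5′ end, averaged 12.8 ± 1.79 FPKM in SC and 5.08 ± 0.627 FPKM in EC.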

How the data were processed

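RNA-seq of 8 mouse libraries (SMF, n = 3, SC, n = 2, EC, n = 3) was read from the deposited tables. Per the submitters' processing notes, the authors used FastQC, Trimmomatic, HISAT2, StringTie and bedtools with the mm10 build. The sources used here do not give versions, settings or strand use. Gene and transcript FPKM and transcript coverage (mean read depth) are the authors' values per the file headers, and the TPM table and its specificity score are the authors' too. The score was not used. The median ratio of FPKM to coverage over transcripts above a minimum FPKM gave the aligned bases of each library, whose number limits the precision. Shares of aligned bases were taken from FPKM times gene length.

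Differences were tested with limma 3.58.1 in R 4.3.3 on log2(FPKM + 1), letting the variance follow the mean level, over the 16700 genes that reached an FPKM of 1 in 2 or more libraries, with all 8 libraries in the fit and Benjamini-Hochberg adjustment at 0.05. Fold changes on this scale understate those of low genes. The code was checked on simulated data. Copies were found with BLAST 2.17.0 (at least 99% identity over at least 100 bases), and their FPKM times length was added to that of the mitochondrial gene in an alternative chosen after seeing the data.

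All mt- genes are accounted for. From each list of nuclear genes, the members named are among the up to 4 with the highest mean FPKM called in the commoner direction and the up to 2 called in the other, for each comparison. Cox7a2 was named besides these. The members and the lists were chosen with earlier results of these data known. Alternatives changed the pseudocount, the filter, the scaling, the table, the trend, the replicate block and the libraries included.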

Additional observations from a re-analysis of the deposited data

How the results depend on the processing

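For SMF minus SC, 1341 of all 36048 tested genes were higher without the filter and 1084 of 7872 with a filter at an FPKM of 5. Limma without trend gave 1424 of 16700 higher. Median-of-ratios scaling gave 3737 higher and 4584 lower, and scaling without the 50 top genes per group 2611 and 5863. The count of mRNAs called higher for SMF minus SC, 1 as reported, was 0 without the filter, 4 with a filter at an FPKM of 5, 7 under median-of-ratios scaling, 4 under upper-quartile scaling, 7 when scaled without the 50 top genes per group, 4 with limma without trend and 4 with copies. These counts also changed when 1 library was left out. For SMF minus EC, 1730 of all 36048 tested genes were higher and 9123 lower without the filter. Median-of-ratios scaling gave 4116 of 16700 higher and 5357 lower, and scaling without the top genes 2697 and 7231. Among mRNAs, 2 higher and 2 lower as reported for SMF minus EC, the count higher was 0 without the filter, 7, 4 and 5 under the 3 scalings and 6 with copies. The count of mRNAs lower was 1 without the filter and 0 under each scaling and with copies. Both counts also changed when 1 library was left out. Of rRNA and tRNA genes, 6 were called for SMF minus SC, 19 under median-of-ratios scaling, 16 without the top genes and 5 to 8 with 1 library left out. For SMF minus EC, 7 were called, 17 and 12 under these scalings and 5 to 10 with 1 library left out. For SC minus EC, 0 were called, 1 without the top genes and 0 to 3 with 1 library left out, and mRNAs gave 0 to 0 higher and 0 to 4 lower.

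The log2 ratio of the summed mRNA share of FPKM was 0.37 for SMF minus SC, 1.61 with a total without the top genes and 0.04 to 0.80 with 1 library left out. For SMF minus EC it was 0.39, 1.19 without the top genes, 0.75 with copies and 0.25 to 0.54 with 1 library left out. For SC minus EC it was 0.02, -0.0049 in the TPM table, -0.42 without the top genes, -0.0467 as a share of bases and -0.41 to 0.36 with 1 library left out.

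Among genes called in at least 1 of the 2 forms compared, signs turned under median-of-ratios scaling for mt-Ti (1.38), mt-Ta (1.14) and mt-Tc (1.29) in SMF minus SC and for mt-Ta (0.51), mt-Tn (1.12) and mt-Te (1.21) in SMF minus EC. With copies they turned for mt-Co2 (0.96) and mt-Co3 (1.49) in SMF minus SC and for mt-Co2 (0.95), mt-Atp6 (1.04) and mt-Co3 (1.86) in SMF minus EC. In the TPM table mt-Ts2, whose locus also spans mt-Tl2, was at -2.86 and -3.40. mt-Tk in SMF minus SC ranged from -1.11 to 1.26 with 1 library left out. The causes were not tested.

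With the replicate number as a block, 1 mRNA was higher for SMF minus EC, since mt-Cytb was lost (limma adjusted p = 0.0512), and 1 tRNA was called for SC minus EC. Same-numbered libraries correlated at -0.0581 to 0.0906 in their deviations from group means. The deviations of the 2 SC libraries mirror each other, so these correlations cannot show whether the numbers pair the samples. The number of libraries, with 2 for SC, limits the precision of every comparison.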
